A study of Gallus gallus with 6 samples.

Results

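The genes described here encode G-protein-coupled receptors, the alpha, beta and gamma subunits of heterotrimeric G proteins, and the RGS proteins that switch those G proteins off. They were taken by symbol alone, from the families named GPR, ADGR, ADRA and ADRB, HTR, LPAR, S1PR, P2RY, EDNR, F2R, AGTR, ADORA, GNA, GNB, GNG and RGS. This gave 162 entries of the 26591 genes in the tables, with 161 symbols because HTR7 stands for an entry on chromosome 6 and another on chromosome 4. By role there were 114 receptors, 23 G protein subunits and 22 RGS genes, the last including the membrane anchors RGS7BP and RGS9BP. The other 3 entries share only the letters of their names: ADRBK1 encodes a receptor kinase also called GRK2, AGTRAP a protein that binds an angiotensin receptor, and HTR3A a serotonin-gated ion channel. The 114 were counted as receptors by name, and whether every product is a G-protein-coupled receptor was not examined. Genes with no entry of a matching name, among them GNAS, GNA12, GNAI3 and S1PR3, were not analysed here.

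A G-protein-coupled receptor spans the cell membrane, binds a ligand outside and makes a G alpha subunit inside exchange GDP for GTP, after which alpha and the beta-gamma pair act on separate effectors. The Gs and Golf alpha subunits raise cyclic AMP, the Gi, Go and Gz subunits lower it, and Gq and G11 activate phospholipase C. RGS proteins speed the hydrolysis of GTP by the alpha subunit and so shorten the signal. In mammals, adrenaline acts on muscle fibres through receptors of this kind, and endothelin and angiotensin act through them on vessels.

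The RNA came from passage 1 cells grown out of chicken embryo muscle, with 3 libraries labelled as dividing myoblasts and 3 labelled as differentiated myotubes. Myoblasts are single precursor cells that can fuse into myotubes with many nuclei. The myoblasts were kept in RPMI-1640 medium containing 15% fetal bovine serum, whereas differentiation used the same medium containing 2% horse serum, and both media held 2% penicillin and streptomycin. The kind and the amount of serum changed together with the state of the cells, so their effects cannot be told apart. Whether the 3 replicates of a group were separate cultures or animals is not stated, and the p-values therefore reflect only how much these libraries vary, which could be technical variation.

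Total counts ran from 21893152 to 27546527 per library. Myoblast replicate 3 stood apart from the other myoblast libraries in log2 CPM. CPM is the count scaled to the library total, adjusted for this comparison by TMM normalisation and a small added count. The root mean square difference of replicate 3 was 0.476 and 0.515 from replicates 1 and 2, which differed from each other by 0.343. Over the receptor, G protein and RGS genes alone those differences were 0.583, 0.595 and 0.325, and the differences between a myoblast and a myotube library were 1.25 to 1.36. Of 12 skeletal muscle markers, 0 rose and 6 fell in the libraries labelled myotube, with a summed level of 3384, 3286 and 6082 FPKM in myoblast replicates 1 to 3 and of 1974 to 2074 FPKM in the myotubes. Without myoblast replicate 3, 1 of them rose and 7 fell. Fibroblast markers went the other way, with 9 of 12 tested higher and 1 lower and a summed level of 1502 to 2380 FPKM in myoblasts and 4770 to 5486 FPKM in myotubes. All 10 dividing cell markers fell. Markers of smooth muscle and pericytes (3 of 9 tested rose and 5 fell), erythroid cells (0 of 8 rose and 6 fell) and epithelium (0 of 5 rose and 4 fell) also moved. The smooth muscle and pericyte list shares 1 gene with the entries described here, so it is not fully separate from them. For comparison, 59.1% of all genes tested were called, 30% higher and 29.1% lower, beside 50% of the muscle markers. Leukocyte markers are given beside the P2Y receptors, and endothelial and nerve markers beside the endothelin receptors. In bulk RNA, fewer cells of a type and less RNA per cell cannot be told apart, and the part of these markers in the changes below was not tested.

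Of the 162 entries, 111 had enough counts to be tested and 75 of these were called, 31 higher and 44 lower in myotubes. A call is an adjusted p under 0.05 in edgeR's quasi-likelihood test with Benjamini-Hochberg adjustment over the 15959 genes tested, and an adjusted p given for a gene comes from this fit of 3 myotube against 3 myoblast libraries unless a left-out library or another method is named beside it. Over all genes tested, 59.1% were called, 30% higher and 29.1% lower, beside 67.6% of the receptor, G protein and RGS genes. Changes of at least 2-fold were called for 21 higher and 23 lower entries, where 24.9% of all genes tested had such calls, 13.2% higher and 11.8% lower. The median log2 change of the 111 was -0.06 against 0.00 for all genes, and the median size of the change, whatever its direction, was 0.71 against 0.51. FPKM, the count scaled to gene length and library total, did not overlap between the groups for 80 of the 111, with 34 higher and 46 lower, where 66.7% of all genes tested did not overlap. Without myoblast replicate 3, 36 of 115 tested rose and 42 fell, 67.8% called, where 61.5% of all genes tested were called.

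Among receptors, 20 of 73 tested rose and 28 fell, with a median log2 change of -0.04. Of 19 tested G protein subunits, 7 rose and 5 fell, with a median of -0.05. Among RGS genes and anchors, 2 of 16 tested rose and 11 fell, with a median of -0.86. The summed FPKM of all 162 entries was 1657 ± 41.6 (SD, n = 3) in myoblasts and 1617 ± 12.3 (SD, n = 3) in myotubes, and the receptors together summed to 564 ± 7.08 and 559 ± 16.9 FPKM (SD, n = 3).

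**Figure D1:**
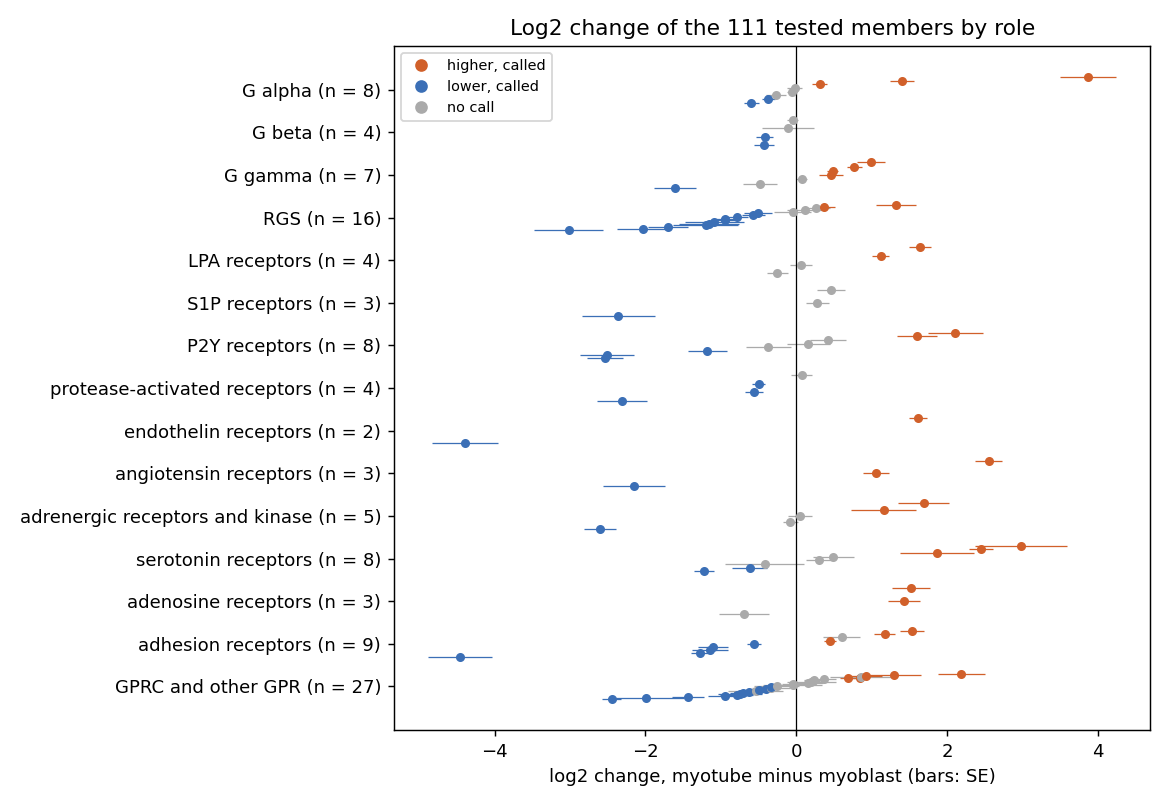
Log2 change, myotube minus myoblast, of the 111 tested entries, one point each with its SE as a bar, by role on the vertical axis (n, entries tested). Called genes lie on both sides of 0 in most roles. Of the 16 RGS genes and anchors, 11 are called lower, where 29.1% of all genes tested are called lower. EDNRB (-4.39), ADGRB1 (-4.46) and GNAZ (3.87) lie farthest out.

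Lysophosphatidic acid (LPA) is a serum lipid made outside cells by autotaxin, and 2 of its 4 tested receptors rose. LPAR4, which in mammals couples to several G proteins, was at 6.2, 6.45 and 4.20 FPKM in myoblast replicates 1 to 3 and at 16.6, 16.7 and 17.1 FPKM in myotube replicates 1 to 3. The groups did not overlap, and LPAR4 rose 3.12-fold (log2 change 1.64 ± 0.15 SE, edgeR adjusted p 5.09e-05). LPAR2, on an unplaced scaffold, was at 8.47, 9.33 and 7.38 FPKM in myoblasts and at 16.7, 18.3 and 17.4 FPKM in myotubes. It rose 2.17-fold (log2 change 1.12 ± 0.11 SE, edgeR adjusted p 7.48e-05), again with no overlap. LPAR1 (log2 change -0.25 ± 0.14 SE) and LPAR6 (0.06 ± 0.15 SE) were not called, and LPAR6 lies within RB1 on the opposite strand. The gene for autotaxin itself, listed as Enpp2, was among the largest changes of the ligand enzymes: it rose from 1.63 ± 0.39 to 27.8 ± 7.3 FPKM (SD, n = 3), a log2 change of 4.16 ± 0.23 SE (edgeR adjusted p 5.33e-06).

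Receptors for sphingosine 1-phosphate, a related lipid, showed 1 call among 3. S1PR2, the highest of them, was at 20.4, 18.8 and 22.2 FPKM in myoblasts and at 28.1, 22.8 and 20.9 FPKM in myotubes. Its groups overlapped and it was not called (log2 change 0.28 ± 0.15 SE, edgeR adjusted p 0.129). S1PR4, a receptor of lymphoid cells in mammals, was low throughout, at 0.477, 0.434 and 0.517 FPKM in myoblasts and 0.0712, 0.0366 and 0.153 FPKM in myotubes. It fell by 2.36 on the log2 scale (± 0.48 SE, edgeR adjusted p 0.00301) on sums of 43 and 7 counts, and its log2 change was -2.98 without myotube replicate 3. S1PR1 did not reach a call (log2 change 0.46 ± 0.19 SE, edgeR adjusted p 0.0700), except without myoblast replicate 3 (0.61, adjusted p 0.0177).

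Of 8 P2Y receptors for extracellular nucleotides, 2 rose and 3 fell. P2RY2 and P2RY6 are neighbours on chromosome 1, at 195388851 to 195390862 and 195414702 to 195420927, and in mammals both couple to Gq. P2RY2, a receptor for ATP and UTP, was at 5.26, 6.07 and 4.63 FPKM in myoblasts and at 0.602, 1.07 and 0.949 FPKM in myotubes. It fell by 2.54 on the log2 scale (± 0.24 SE, edgeR adjusted p 5.9e-05), every myotube library being below every myoblast library. P2RY6, a receptor for UDP, was at 0.690, 0.812 and 1.97 FPKM in myoblasts and at 4.90, 4.77 and 4.95 FPKM in myotubes. It rose 4.30-fold (log2 change 2.11 ± 0.36 SE, edgeR adjusted p 0.00124), and by 2.77 on the log2 scale without myoblast replicate 3, its highest myoblast library.

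P2RY12, P2RY13 and P2RY14 form a cluster on chromosome 9 between 23626222 and 23662862, and in mammals they couple to Gi. P2RY12, the ADP receptor of platelets and microglia, was at 4.72, 6.13 and 10.7 FPKM in myoblasts and at 1.11, 0.942 and 1.60 FPKM in myotubes. P2RY13, another ADP receptor, was at 7.92, 8.93 and 14.4 FPKM in myoblasts and at 3.95, 4.09 and 5.35 FPKM in myotubes. Both were highest in myoblast replicate 3, and neither overlapped between groups. P2RY12 fell by 2.51 (± 0.36 SE, edgeR adjusted p 0.000521) and P2RY13 by 1.18 on the log2 scale (± 0.26 SE, edgeR adjusted p 0.00434). Without myoblast replicate 3 their log2 changes were smaller, at -2.08 and -0.85. P2RY14, a receptor for UDP-glucose, was not called (log2 change 0.42 ± 0.24 SE). All of the cluster lies within MED12L on the opposite strand, which itself fell by 0.83 on the log2 scale (± 0.11 SE). Without a stated strand setting and exon positions, it is not known whether reads of the overlapping genes were kept apart.

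P2RY8, which leukocytes express in mammals, was at 0.521, 0.676 and 0.981 FPKM in myoblasts and at 2.30, 1.96 and 2.14 FPKM in myotubes. It rose 3.02-fold (log2 change 1.60 ± 0.27 SE, edgeR adjusted p 0.00123). P2RY4 (log2 change -0.37 ± 0.30 SE) and P2RY1 (0.16 ± 0.29 SE) were not called, though P2RY1 was called higher without myoblast replicate 3 (0.54, edgeR adjusted p 0.0458). Leukocyte and macrophage markers, whose cells in mammals express P2RY6, P2RY8, P2RY12 and P2RY13, summed to 132, 141 and 299 FPKM in myoblast replicates 1 to 3 and to 235, 250 and 267 FPKM in myotubes. Of 13 tested, 4 rose and 1 fell, 38.5% called, where 59.1% of all genes tested were called. Without myoblast replicate 3, 11 rose and 1 fell, 92.3% called, where 61.5% of all genes tested were called. Among the 4 that rose in the fit of all libraries, CSF1R (edgeR adjusted p 0.0256) and MARCO (0.0484) lost their calls when any library but myoblast replicate 3 was left out. MARCO was also not called in DESeq2 (adjusted p 0.0934). PTPRC, the pan-leukocyte marker, was present at 5.70 ± 0.77 and 6.64 ± 0.53 FPKM (SD, n = 3). The part of these cells in the P2Y changes was not tested.

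Adenosine receptors, which bind the product left when extracellular ATP is stripped of its phosphates, had 2 of 3 tested members higher. ADORA1, a Gi-coupled receptor, was at 7.87, 6.47 and 11.7 FPKM in myoblasts and at 22.8, 22.1 and 22.9 FPKM in myotubes. ADORA1 rose 2.69-fold (log2 change 1.43 ± 0.21 SE, edgeR adjusted p 0.000547), with myotube values close to each other and above every myoblast library. ADORA2B, a low-affinity receptor that couples to Gs, was at 3.17, 2.66 and 3.05 FPKM in myoblasts and at 9.95, 9.21 and 5.28 FPKM in myotubes. It rose 2.86-fold (log2 change 1.52 ± 0.25 SE, edgeR adjusted p 0.00101), with myotube replicate 3 the lowest of its group. ADORA2A was not called (log2 change -0.69 ± 0.33 SE, edgeR adjusted p 0.104), and its groups overlapped. Its highest library was myoblast replicate 3, at 6.34 FPKM. ADORA2A was called lower without myoblast replicate 2 (-0.95, edgeR adjusted p 0.0226), its lowest myoblast library.

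Protease-activated receptors are switched on when thrombin or trypsin-like enzymes cut their outer end, and 3 of the 4 fell. F2RL1, the trypsin receptor and the highest receptor in myoblasts, was at 57.9, 54.5 and 40.6 FPKM there and at 33.3, 32.5 and 33.7 FPKM in myotubes. It fell by 0.56 on the log2 scale (± 0.12 SE, edgeR adjusted p 0.00376) without overlap. F2RL3, a second thrombin receptor best known from platelets, was at 4.43, 3.90 and 3.39 FPKM in myoblasts and at 0.868, 1.02 and 0.355 FPKM in myotubes. It fell by 2.31 on the log2 scale (± 0.33 SE, edgeR adjusted p 0.000503). F2R, the main thrombin receptor, also fell by 0.50 (± 0.09 SE, edgeR adjusted p 0.00189), from between 28.1 and 32.9 to between 20.3 and 21.8 FPKM. F2RL2, close to F2R on the Z chromosome, was not called (0.07 ± 0.14 SE). It lies within an unnamed gene of the opposite strand that rose by 2.04 on the log2 scale (± 0.12 SE).

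The endothelin receptors EDNRA and EDNRB were called in opposite directions. EDNRA, on chromosome 4 from 32158004 to 32187519, is the receptor through which endothelin contracts smooth muscle in mammals. It was at 26.4, 29.2 and 24.3 FPKM in myoblasts and at 77.2, 67.3 and 90.05 FPKM in myotubes. Every myotube library was above every myoblast library, and EDNRA rose 3.06-fold (log2 change 1.61 ± 0.12 SE, edgeR adjusted p 1.64e-05). By mean deposited FPKM it ranked 5 of the 114 receptors in myoblasts and 1 in myotubes. The deposited FPKM of EDNRA was above its count scaled to gene length and library total. EDNRB, known in mammals from endothelium and from neural crest derivatives, was at 0.775, 1.35 and 0.838 FPKM in myoblasts and at 0.0245, 0.0504 and 0.0527 FPKM in myotubes. It fell by 4.39 on the log2 scale (± 0.44 SE, edgeR adjusted p 8.33e-05), on sums of 127 and 5 counts. EDNRB2, a further receptor found in birds, had too few counts for the test.

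Beside EDNRB, 4 of 7 tested endothelial markers fell and 1 rose, and of 7 tested nerve and Schwann cell markers 4 fell and 1 rose. In each list 71.4% were called, where 59.1% of all genes tested were called. The endothelial sum was 12.4, 14.0 and 15.5 FPKM in myoblasts and 18.8, 16.0 and 20.1 FPKM in myotubes, where FLI1 alone rose from 5.95 ± 0.70 to 16.4 ± 1.77 FPKM (SD, n = 3). FLI1 is an endothelial and blood transcription factor. The endothelial receptor gene KDR was at 0.260 ± 0.087 and 0.0190 ± 0.017 FPKM (SD, n = 3). Nerve and Schwann cell markers summed to 50.7 to 67.1 FPKM in myoblasts and 24.1 to 27.8 FPKM in myotubes. Their part in the fall of EDNRB was not tested.

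AGTR1 and AGTR2, the angiotensin receptors, were called in opposite directions. AGTR2, a receptor common in fetal tissues of mammals, was at 2.47, 2.16 and 2.08 FPKM in myoblasts and at 10.1, 12.7 and 15.0 FPKM in myotubes. It rose 5.84-fold (log2 change 2.55 ± 0.18 SE, edgeR adjusted p 1.62e-05) with no overlap. AGTR1, the Gq-coupled receptor behind the vessel-constricting action of angiotensin, was low at 0.399, 0.484 and 0.305 FPKM in myoblasts and at 0.0894, 0.0919 and 0.0640 FPKM in myotubes. It fell by 2.15 on the log2 scale (± 0.41 SE, edgeR adjusted p 0.00227), on sums of 42 and 8 counts. AGTRAP, whose product binds the type 1 receptor in mammals, rose 2.09-fold (log2 change 1.06 ± 0.17 SE, edgeR adjusted p 0.000925).

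The adrenergic receptors ADRA2A and ADRA2C were called in opposite directions. ADRA2A, a Gi-coupled receptor for adrenaline and noradrenaline, was at 3.93, 3.19 and 3.53 FPKM in myoblasts and at 0.497, 0.579 and 0.605 FPKM in myotubes. ADRA2A fell by 2.60 on the log2 scale (± 0.21 SE, edgeR adjusted p 2.94e-05). ADRA2C was at 0.546, 0.708 and 0.298 FPKM in myoblasts and at 1.24, 1.53 and 2.01 FPKM in myotubes, and rose 3.22-fold (log2 change 1.69 ± 0.34 SE, edgeR adjusted p 0.00284). Neither overlapped between the groups. ADRA1B was not called (0.05 ± 0.16 SE). The kinase gene ADRBK1, whose product phosphorylates active receptors, was at 13.9, 12.5 and 13.3 FPKM in myoblasts and at 12.9, 12.3 and 11.01 FPKM in myotubes and was not called (-0.08 ± 0.10 SE).

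Of 8 tested serotonin receptor entries, 3 rose and 2 fell. HTR7 on chromosome 6, at 19598465 to 19620215, encodes a Gs-coupled receptor and was at 1.29, 1.37 and 1.05 FPKM in myoblasts and at 6.80, 6.18 and 6.49 FPKM in myotubes. It rose 5.46-fold (log2 change 2.45 ± 0.16 SE, edgeR adjusted p 1.17e-05). The HTR7 entry on chromosome 4 was low and also rose (log2 change 1.87 ± 0.49 SE, edgeR adjusted p 0.0108), by 2.62 without myoblast replicate 2. HTR2B, a Gq-coupled receptor, was at 9.35, 8.60 and 8.97 FPKM in myoblasts and at 3.44, 3.45 and 4.24 FPKM in myotubes. HTR2B fell by 1.22 on the log2 scale (± 0.13 SE, edgeR adjusted p 0.000124), but it lies within PSMD1, a proteasome gene on the opposite strand. PSMD1 had 208 ± 11.6 and 100.4 ± 2.73 FPKM (SD, n = 3) and fell by 1.00 (± 0.08 SE, edgeR adjusted p 2.28e-05). Whether reads of the pair were kept apart is not known without the strand setting and exon positions.

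The ion channel gene HTR3A was at 0, 0.0896 and 0.151 FPKM in myoblasts and at 0.500, 0.635 and 0.821 FPKM in myotubes. HTR3A rose (log2 change 2.98 ± 0.61 SE, edgeR adjusted p 0.0031) on sums of 9 and 64 counts, with 3.86 without myoblast replicate 3. HTR1B was called lower (-0.62 ± 0.23 SE, edgeR adjusted p 0.0461), a call that ended when myoblast replicate 1 or 2 or myotube replicate 1 or 2 was left out (adjusted p 0.1096 to 0.1397). HTR1D, HTR2A and HTR2C were not called.

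**Figure D2:**
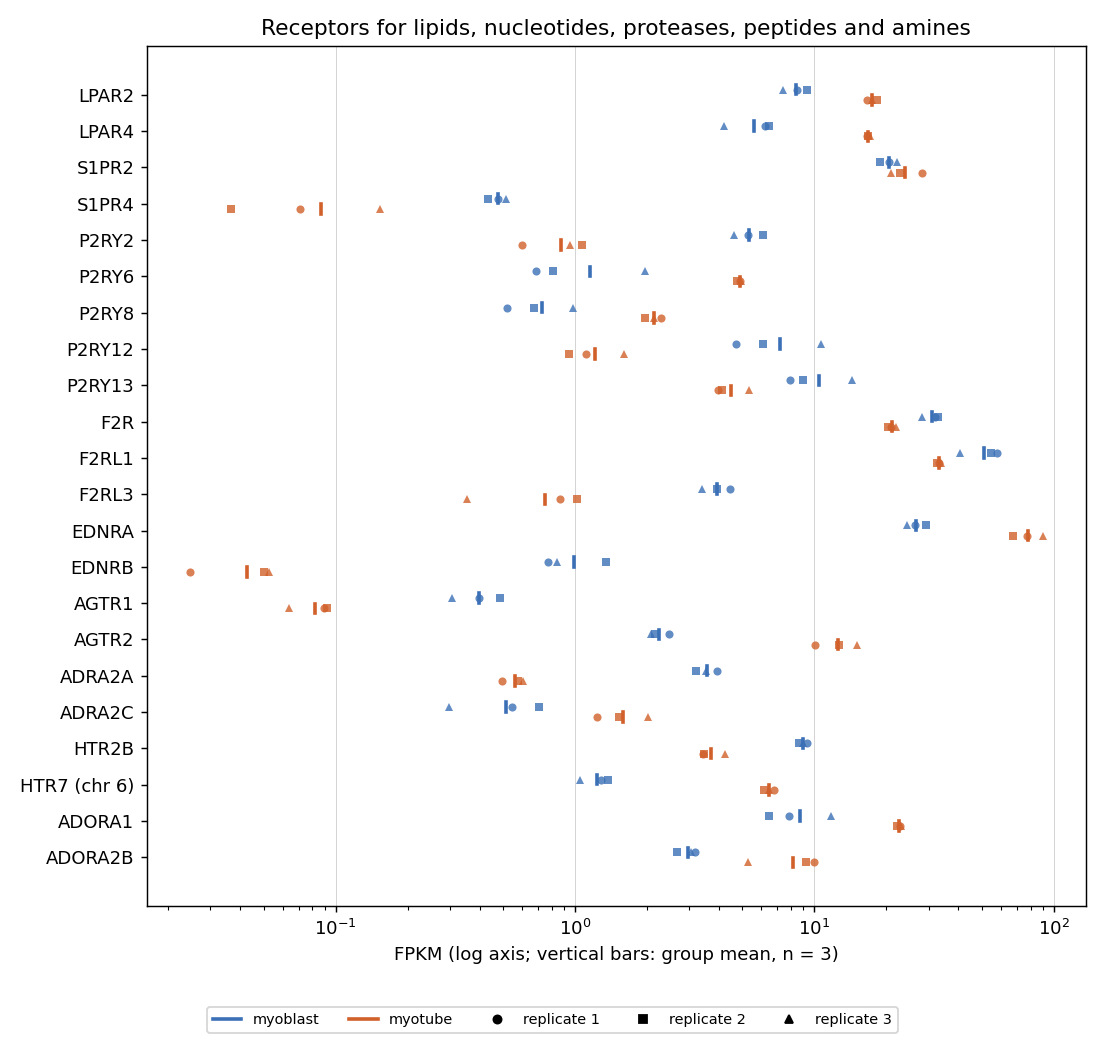
FPKM on a log axis of receptors for lipids, nucleotides, proteases, peptides and amines, with a point for each library (blue, myoblast; orange, myotube; the shape gives the replicate) and a vertical bar at the mean of the 3. EDNRA, AGTR2 and HTR7 (chromosome 6) lie to the right in every myotube library, while EDNRB, P2RY2 and ADRA2A lie to the left, and S1PR2 overlaps.

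Adhesion receptors carry long extracellular domains that touch matrix or other cells, and 8 of the 9 tested were called, 3 higher and 5 lower. ADGRA2, which in mouse brain vessels acts with Wnt ligands, was at 2.50, 3.09 and 1.94 FPKM in myoblasts and at 6.92, 7.32 and 6.61 FPKM in myotubes. It rose 2.90-fold (log2 change 1.53 ± 0.16 SE, edgeR adjusted p 8.42e-05). ADGRG6, required for myelination by Schwann cells in mouse and zebrafish, was at 1.24, 1.23 and 1.15 FPKM in myoblasts and at 2.80, 2.35 and 2.71 FPKM in myotubes. It rose 2.25-fold (log2 change 1.17 ± 0.14 SE, edgeR adjusted p 0.00019). ADGRL2, a latrophilin, rose by less (0.45 ± 0.08 SE, edgeR adjusted p 0.00163).

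ADGRB1 is a receptor that mouse myoblasts use in recognising dying neighbours before fusion. It was at 0.348, 0.460 and 0.318 FPKM in myoblasts and at 0.00888, 0.0274 and 0.00954 FPKM in myotubes. ADGRB1 fell by 4.46 on the log2 scale (± 0.42 SE, edgeR adjusted p 6.17e-05), on sums of 134 and 5 counts, and its log2 change was -5.11 without myotube replicate 2. ADGRG1, a collagen-binding receptor, had the highest mean of the family over the 6 libraries, at 19.1, 18.4 and 30.1 FPKM in myoblasts and at 10.6, 10.5 and 9.42 FPKM in myotubes. It fell by 1.10 on the log2 scale (± 0.20 SE, edgeR adjusted p 0.00178), with myoblast replicate 3 the highest library. Without that library its log2 change was smaller, at -0.81. ADGRL3, another latrophilin, was at 14.1, 12 and 15.2 FPKM in myoblasts and at 5.33, 5.51 and 5.51 FPKM in myotubes, and fell by 1.28 (± 0.11 SE, edgeR adjusted p 4.06e-05). ADGRD2 was at 11.7, 12.3 and 6.43 FPKM in myoblasts and at 3.67, 5.30 and 4.27 FPKM in myotubes, and fell by 1.14 (± 0.24 SE, edgeR adjusted p 0.00344). None of these overlapped between groups. ADGRA3 fell by 0.56 (± 0.09 SE), and ADGRD1, within STX2 on the opposite strand, was not called (0.60 ± 0.24 SE, edgeR adjusted p 0.0609).

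Of 27 tested genes named GPR or GPRC, many of them receptors whose ligand is unsettled, 5 rose and 11 fell. GPR65, a receptor that senses protons in mammals, was not called (-0.26 ± 0.30 SE). GPR146, linked in mouse liver to cholesterol secretion, was at 0.783, 0.734 and 1.62 FPKM in myoblasts and at 5.04, 5.14 and 3.84 FPKM in myotubes. It rose 4.58-fold (log2 change 2.19 ± 0.31 SE, edgeR adjusted p 0.000503), although myoblast replicate 3 was well above the other myoblasts.

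GPR20, at 2.64, 2.38 and 1.88 FPKM in myoblasts and at 0.792, 0.844 and 0.788 FPKM in myotubes, fell by 1.44 on the log2 scale (± 0.21 SE, edgeR adjusted p 0.000587). GPR107, a Golgi-associated protein in mammals and the highest of these genes by mean deposited FPKM over the 6 libraries, was at 34.2, 35.3 and 34.3 FPKM in myoblasts and at 24.0, 25.4 and 26.1 FPKM in myotubes. Its deposited FPKM was above its count scaled to gene length and library total, so this rank depends on the deposited values. Its fall was smaller, 0.40 on the log2 scale (± 0.07 SE, edgeR adjusted p 0.00121). The groups did not overlap for either gene. GPR157 (0.92 ± 0.22 SE), GPR39 (0.84 ± 0.12 SE), GPR162 (0.69 ± 0.11 SE) and GPR61 (1.30 ± 0.35 SE) made up the rest of those that rose. GPR39 is a zinc-responsive receptor in mammals.

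GPR1, GPRC5B and GPR137B also fell, by between 0.50 and 0.95 on the log2 scale. GPR149 was low and fell by 1.99 (± 0.50 SE, edgeR adjusted p 0.00856), on sums of 56 and 12 counts. GPR75, GPR158, GPR176 and GPR85 were called lower with calls that single libraries decided. The call of GPR75 (-0.79 ± 0.22 SE) ended without myotube replicate 2 or 3 (edgeR adjusted p 0.0608 and 0.0528). That of GPR158 (-0.63 ± 0.20 SE) ended without myoblast replicate 1 or myotube replicate 1 or 2 (edgeR adjusted p 0.0557 to 0.0920), and that of GPR176 (-0.34 ± 0.11 SE) without myoblast replicate 1 or myotube replicate 2 or 3 (0.0635 to 0.104). GPR85 (-0.75 ± 0.29 SE, edgeR adjusted p 0.0496) lost its call without any library but myoblast replicate 2 (adjusted p 0.0644 to 0.169). No call was made for GPR17, GPR34, GPR63, GPR137C, GPR155, GPR161, GPR174, GPR180, GPR183 and GPRC5C. Of these, GPR155 was called higher without myoblast replicate 2 (0.31, edgeR adjusted p 0.0300) and GPR174 without myoblast replicate 3 (1.32, adjusted p 0.0369). GPRC5B overlaps IQCK on the opposite strand, and GPR17, GPR34 and GPR183 lie within LIMS2, CASK and UBAC2 on the opposite strand.

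**Figure D3:**
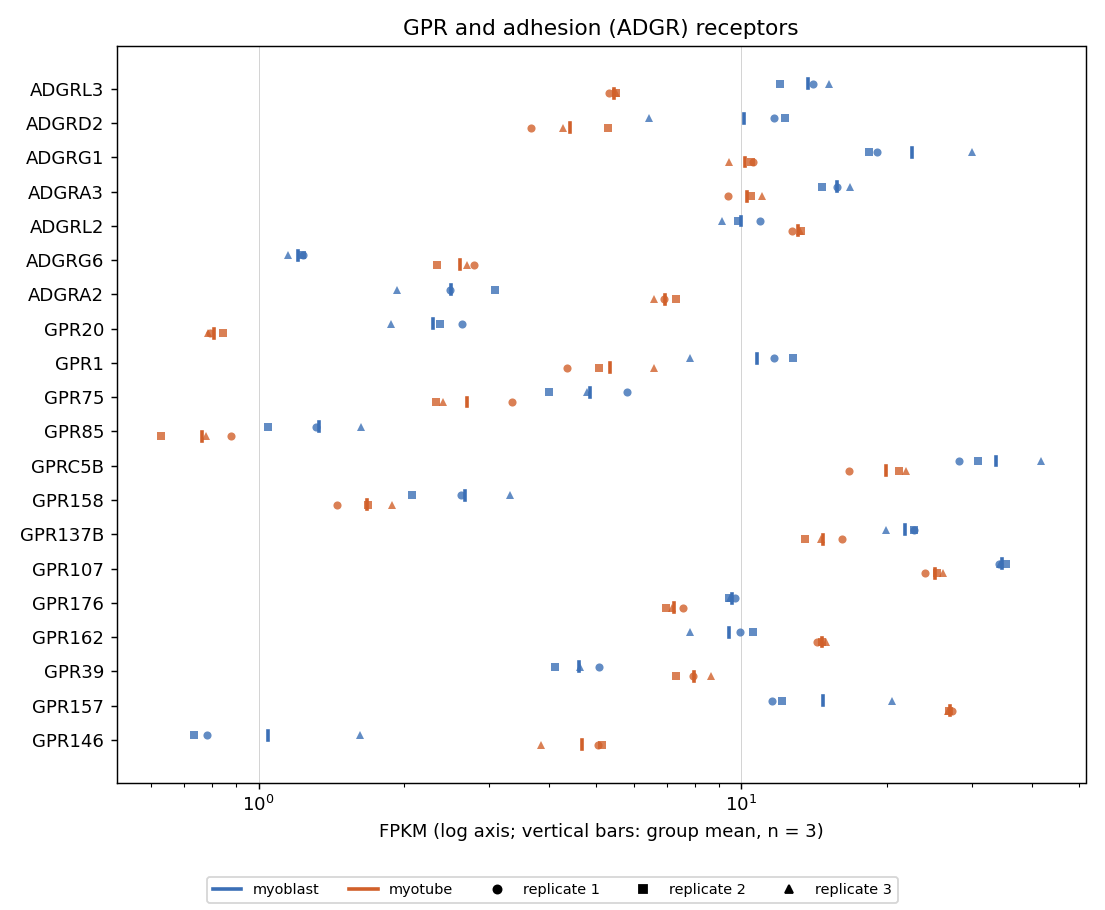
FPKM on a log axis of 20 called adhesion and GPR receptors with a mean of at least 1 FPKM, with a point for each library (blue, myoblast; orange, myotube; the shape gives the replicate) and a vertical bar at the mean of the 3. ADGRL3 and GPR20 lie to the left in every myotube library and GPR146 and ADGRA2 to the right, and no gene shown has overlapping groups.

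Among G alpha subunits, 3 of 8 tested rose and 2 fell, and all 3 that rose belong to the Gi, Go and Gz class. GNAZ, on chromosome 15 from 8745941 to 8773069, encodes Gz, known in mammals from neurons and platelets. It was at 0.476, 0.780 and 0.193 FPKM in myoblasts and at 7.64, 6.82 and 5.51 FPKM in myotubes. Every myotube library was above every myoblast library, and GNAZ rose 14.6-fold (log2 change 3.87 ± 0.37 SE, edgeR adjusted p 6.32e-05). GNAZ lies within RSPH14 of the opposite strand, which was at 0.485 ± 0.316 and 0.486 ± 0.050 FPKM (SD, n = 3) and was not called (0.08 ± 0.47 SE).

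GNAO1, the Go subunit abundant in brain, was at 2.67, 3.20 and 2.42 FPKM in myoblasts and at 6.58, 6.76 and 7.74 FPKM in myotubes. GNAO1 rose 2.65-fold (log2 change 1.40 ± 0.16 SE, edgeR adjusted p 0.000168), and 2 unnamed genes that overlap it on the same strand also rose, by 1.67 and 1.45 on the log2 scale. GNAI2, the alpha subunit with the highest mean, was at 66.7, 68.5 and 57.1 FPKM in myoblasts and at 83.1, 75.0 and 70.1 FPKM in myotubes. Its call was slight (log2 change 0.31 ± 0.10 SE, edgeR adjusted p 0.0247) and ended without myotube replicate 1 (0.22, adjusted p 0.0847) and in limma on log2(FPKM + 1) (0.24, adjusted p 0.0601). GNAI1 was not called (-0.02 ± 0.10 SE).

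GNA13, of the G12 and G13 class, fell by 0.60 on the log2 scale (± 0.10 SE, edgeR adjusted p 0.000942), from between 25.4 and 28.05 FPKM to between 16.2 and 18.8 FPKM. GNAQ fell by 0.37 (± 0.09 SE, edgeR adjusted p 0.00879), while GNA11 of the same class was not called (-0.06 ± 0.07 SE). GNAL, the Golf subunit, was not called (-0.27 ± 0.13 SE), except lower without myoblast replicate 3 (-0.35, edgeR adjusted p 0.0348). As a share of the summed FPKM of the 12 alpha subunit genes analysed, the Gi, Go and Gz class took 46.7% ± 1.13 in myoblasts and 56.4% ± 1.36 in myotubes (SD, n = 3). The share of GNA13 was 12.7% ± 0.40 and 8.07% ± 0.72, and that of the Gq and G11 class 36.2% ± 1.08 and 32.1% ± 0.69 (SD, n = 3). The shares did not overlap between groups in any of these classes, and GNAS, GNA12 and GNAI3 are not in them.

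Of 4 G beta subunits, 0 rose and 2 fell. GNB1, the highest of all 162 entries, was at 259, 280.3 and 242 FPKM in myoblasts and at 242, 243 and 240.2 FPKM in myotubes and was not called (log2 change -0.05 ± 0.07 SE, edgeR adjusted p 0.600). GNB4 fell by 0.42 on the log2 scale (± 0.11 SE, edgeR adjusted p 0.00914), from between 42.9 and 52.6 FPKM to between 29.2 and 37.8 FPKM. GNB5, which in mammals pairs with RGS proteins of the group of RGS7, RGS9 and RGS11, was at 6.81, 7.78 and 5.62 FPKM in myoblasts and at 4.38, 5.21 and 4.84 FPKM in myotubes. It was called lower (-0.43 ± 0.13 SE, edgeR adjusted p 0.0219), and the call ended without myoblast replicate 1 or 2 or myotube replicate 1 or 3 (adjusted p 0.0595 to 0.0713). GNB3 was not called (-0.11 ± 0.34 SE).

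Of 7 G gamma subunits, which anchor the beta-gamma pair in the membrane, 4 rose and 1 fell. GNG5, at 148.5, 158.7 and 144.1 FPKM in myoblasts and at 149, 157 and 148.6 FPKM in myotubes, overlapped between groups and was not called (0.07 ± 0.07 SE). GNG4 was at 1.96, 2.41 and 1.68 FPKM in myoblasts and at 0.639, 0.469 and 0.784 FPKM in myotubes, and fell by 1.61 on the log2 scale (± 0.28 SE, edgeR adjusted p 0.00147). GNG10 rose by 0.99 (± 0.18 SE, edgeR adjusted p 0.00154), GNG2 by 0.77 (± 0.10 SE, edgeR adjusted p 0.000357) and GNG12 by 0.48 (± 0.07 SE, edgeR adjusted p 0.000754). GNG2 overlaps FRMD6 on the same strand, which rose by 0.31 on the log2 scale (± 0.08 SE). GNG7 was called higher (0.46 ± 0.16 SE, edgeR adjusted p 0.0336), and the call ended without myoblast replicate 1 or 2 or myotube replicate 1 or 3 (adjusted p 0.0513 to 0.127). GNG11, at 104, 128 and 198 FPKM in myoblasts and at 82.8, 105.5 and 110.0 FPKM in myotubes, was not called (-0.48 ± 0.23 SE), but was called lower without myoblast replicate 1 (-0.67, edgeR adjusted p 0.0283).

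**Figure D4:**
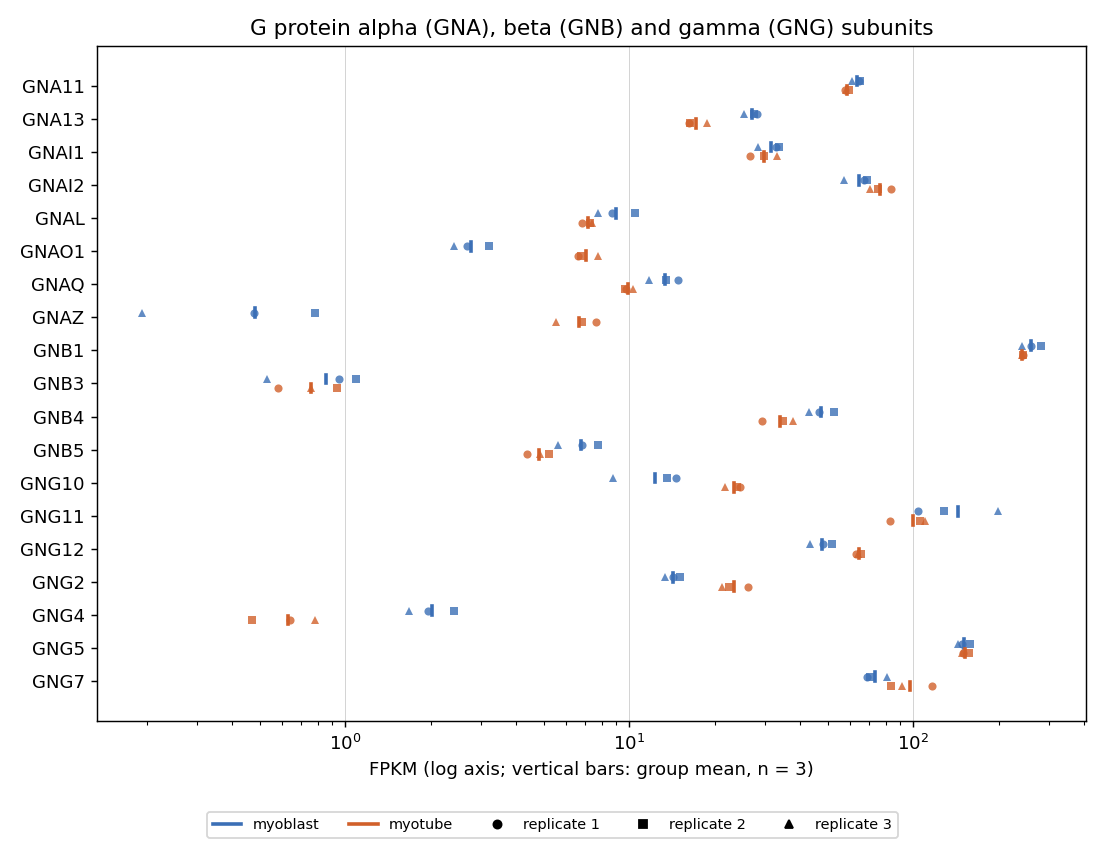
FPKM on a log axis of the 19 tested G protein subunits, with a point for each library (blue, myoblast; orange, myotube; the shape gives the replicate) and a vertical bar at the mean of the 3. GNAZ shows the widest separation, from 0.193 to 0.780 FPKM in myoblasts to 5.51 to 7.64 FPKM in myotubes, while GNB1 and GNG5 overlap.

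Of the 16 tested RGS genes and anchors, 11 fell and 2 rose. That is 81.2% called, where 59.1% of all genes tested were called and 29.1% were called lower. Among those that fell, RGS2, RGS4, RGS5, RGS8 and RGS9 lost their calls when single libraries were left out. The summed level of the RGS genes and anchors was 103.7, 106.8 and 106.6 FPKM in myoblast replicates 1 to 3. It was 86.8, 86.3 and 80.2 FPKM in myotube replicates 1 to 3. RGS20, which in mammals acts on Gz, was at 2.31, 2.00 and 2.67 FPKM in myoblasts and at 0.913, 0.514 and 0.633 FPKM in myotubes. It fell by 1.70 on the log2 scale (± 0.27 SE, edgeR adjusted p 0.000912) without overlap. RGS17, of the same RZ subfamily, fell by 2.03 (± 0.35 SE, edgeR adjusted p 0.00134), from between 0.756 and 1.20 FPKM to between 0.133 and 0.296 FPKM. RGS19, another gene of that subfamily, went the other way, at 1.24, 1.24 and 2.27 FPKM in myoblasts and at 4.16, 4.03 and 3.34 FPKM in myotubes. RGS19 rose 2.50-fold (log2 change 1.32 ± 0.27 SE, edgeR adjusted p 0.00292).

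RGS11, of the R7 subfamily that pairs with GNB5 in mammals, was at 0.318, 0.338 and 0.306 FPKM in myoblasts and at 0.0256, 0.0263 and 0.0550 FPKM in myotubes. It fell by 3.02 on the log2 scale (± 0.46 SE, edgeR adjusted p 0.000685), on sums of 40 and 4 counts. Only its myoblast libraries reached the filter's minimum count of 10. The anchors of this subfamily fell too, RGS7BP by 0.78 (± 0.14 SE, edgeR adjusted p 0.00132) and RGS9BP by 0.95 (± 0.14 SE, edgeR adjusted p 0.000514). RGS9 was called lower (-0.51 ± 0.19 SE, edgeR adjusted p 0.0454), and the call ended without myoblast replicate 1 or 2 or myotube replicate 1 or 2 (adjusted p 0.0946 to 0.165) and with no filter on low counts (adjusted p 0.0504).

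RGS10, a small RGS protein known from immune cells in mammals, fell by 0.94 (± 0.14 SE, edgeR adjusted p 0.000706), from between 15.2 and 20.8 FPKM to between 9.06 and 9.74 FPKM. The deposited FPKM of RGS10 was above its count scaled to gene length and library total, and it enters the summed level of the RGS genes and anchors. RGS14, which in mammals also binds Gi through a second domain, had the highest level of the group. It was at 26.7, 25.7 and 32.0 FPKM in myoblasts and at 36.7, 38.9 and 29.7 FPKM in myotubes, so the groups overlapped, alone among the 75 called entries. RGS14 was called higher (0.37 ± 0.14 SE, edgeR adjusted p 0.0419), but not without myoblast replicate 1 or 2 or myotube replicate 1 or 2 (adjusted p 0.121 to 0.142), nor in limma (0.0665 with a pseudocount of 1).

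Several RGS genes lie near each other on chromosome 8: RGS1, RGS2, RGS18, RGS4 and RGS5 between 3575631 and 3700175. RGS2, which in mammals acts mainly on Gq, was at 11.9, 13.5 and 17.0 FPKM in myoblasts and at 9.43, 8.67 and 9.48 FPKM in myotubes. RGS2 fell by 0.57 (± 0.15 SE, edgeR adjusted p 0.0128), and the call ended without myotube replicate 2 (-0.51, adjusted p 0.0633). RGS4 (-1.16 ± 0.40 SE, edgeR adjusted p 0.0348) lost its call without any library but myoblast replicate 2 (adjusted p 0.0582 to 0.112). RGS5 (-1.20 ± 0.43 SE, edgeR adjusted p 0.0405) lost its call without myoblast replicate 2 or 3 or myotube replicate 1 or 3 (adjusted p 0.0582 to 0.139) and in DESeq2 (0.106). RGS8 (-1.09 ± 0.39 SE, edgeR adjusted p 0.0413) lost its call without any library but myotube replicate 2 (adjusted p 0.0810 to 0.128) and in DESeq2 (0.162). RGS1, RGS12 and RGS18 were not called, and RGS18 was called higher without myoblast replicate 3 (0.47, edgeR adjusted p 0.0300). Without that library 3 of the 16 RGS genes and anchors rose and 8 fell, 68.8% called, where 61.5% of all genes tested were called.

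**Figure D5:**
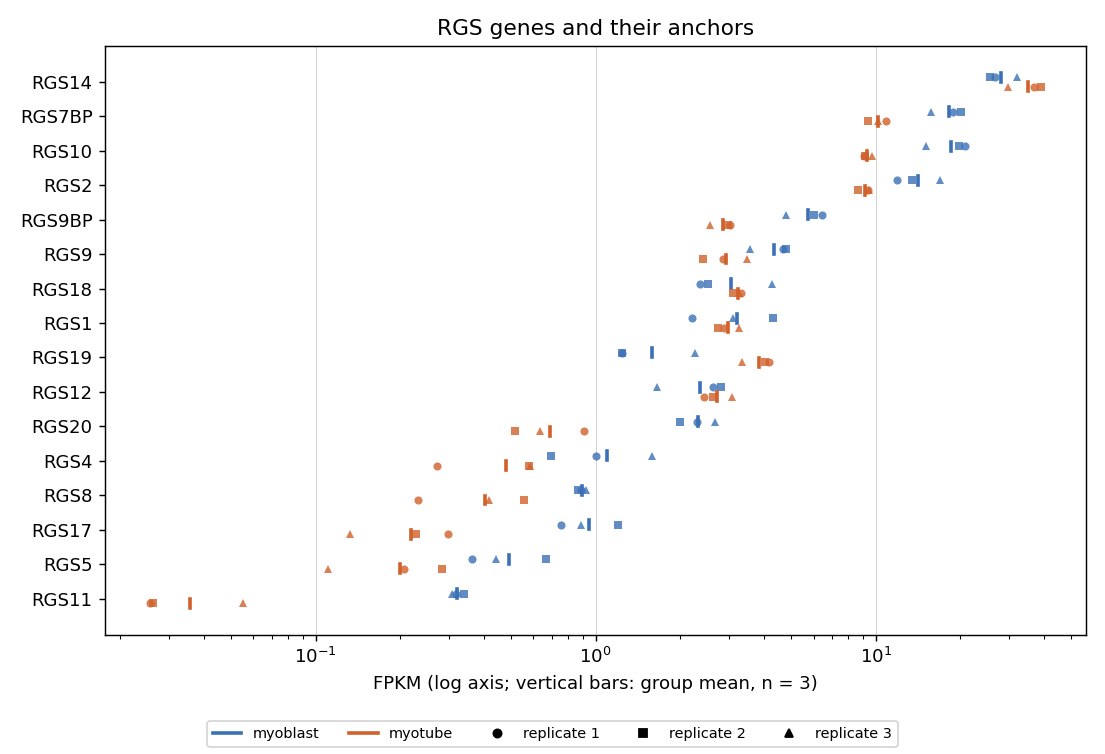
FPKM on a log axis of the 16 tested RGS genes and anchors, with a point for each library (blue, myoblast; orange, myotube; the shape gives the replicate) and a vertical bar at the mean of the 3. RGS20, RGS17 and RGS11 lie to the left in every myotube library, RGS19 lies to the right, and RGS14, the highest, overlaps.

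The pathways around these proteins were followed in lists of other genes. Of 155 tested genes in all lists, 39 rose and 61 fell, and their median log2 change was -0.08. That is 64.5% called, beside 59.1% of all genes tested. Of genes that make, destroy or answer cyclic AMP, 5 of 34 rose and 16 fell (61.8% called), with a median of -0.32. RAPGEF3, an exchange factor that cyclic AMP activates directly, rose from 0.467 ± 0.047 to 12.2 ± 2.28 FPKM (SD, n = 3), a log2 change of 4.76 ± 0.20 SE (edgeR adjusted p 1.53e-06). PKIA, an inhibitor of protein kinase A, fell by 1.72 (± 0.23 SE), the anchoring protein gene AKAP6 by 1.83 (± 0.33 SE) and the phosphodiesterase gene PDE7B by 1.64 (± 0.13 SE).

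On the Gq side, 7 of 35 tested genes of phospholipase C, IP3 receptors and protein kinase C rose and 12 fell (54.3% called), with a median of -0.08. PLCB1, the phospholipase that Gq activates, fell from 7.91 ± 0.64 to 2.65 ± 0.36 FPKM (SD, n = 3), by 1.53 on the log2 scale (± 0.13 SE, edgeR adjusted p 3.58e-05). The calcium release channels of the endoplasmic reticulum were called in opposite directions: ITPR3 fell by 1.69 (± 0.10 SE, edgeR adjusted p 8.38e-06) and ITPR1 rose by 1.05 on the log2 scale (± 0.10 SE, edgeR adjusted p 6.52e-05). PRKCQ, a protein kinase C abundant in skeletal muscle, fell by 2.75 (± 0.35 SE, edgeR adjusted p 0.000259).

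Of receptor kinases, arrestins and other regulators, 7 of 29 tested rose and 11 fell (62.1% called), with a median of -0.03. RASD1, a small GTPase that in mammals acts on Gi signalling, rose by 2.23 on the log2 scale (± 0.25 SE, edgeR adjusted p 0.000134). The arrestin relatives ARRDC4 and ARRDC3 fell by 1.85 (± 0.14 SE) and 1.31 (± 0.11 SE), and REEP1 fell by 1.29 (± 0.32 SE). A list of ligands, their binding partners and genes that make, transport or break down ligands was also followed. Of its 45 tested genes, 19 rose and 16 fell (77.8% called), with a median of 0.17. Besides Enpp2, PLAU, the urokinase gene, rose by 2.21 (± 0.21 SE), and TGM2, a transglutaminase whose product ADGRG1 binds in mammals, fell by 2.79 (± 0.37 SE), with a log2 change of -2.18 without myoblast replicate 3. PLPPR1, related to enzymes that break down LPA, fell by 2.45 (± 0.32 SE).

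The 51 entries that were not tested had no more than 65 counts over the 6 libraries. GPR26, GPR78, RGS21, ADRB1 and HTR1F had no count in any library, where 3 counts would be 0.137 CPM in the smallest library. The other 46 had at least 1 count. By role, the untested entries were 23 GPR genes, 6 serotonin receptors, 6 RGS genes, 5 adhesion receptors, 4 alpha subunits, 3 adrenergic receptors, 2 LPA receptors, ADORA3 and EDNRB2. The alpha subunits among them were the transducins GNAT1, GNAT2 and GNAT3 of sensory cells and GNA14. With no filter on low counts, 5 of the 51 were called by edgeR, 2 higher and 3 lower. LPAR5, with sums of 10 and 36 counts in myoblasts and myotubes, had a log2 change of 2.00 (edgeR adjusted p 0.0190), and ADGRG5, with 12 and 29 counts, one of 1.44 (adjusted p 0.0353). RGS22 (27 and 4 counts, edgeR adjusted p 0.0198), HTR1A (20 and 1 counts, 0.0274) and GPR103 (19 and 2 counts, 0.0422) were lower. These 5 were named after their values were seen.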

How the data were processed

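HISAT and HTSeq are named in the submitters' processing notes. Their versions, the genome build, annotation, strand setting and filters: not given in the sources used here. Per the file headers, the tables as deposited held a whole-number read count per gene and the FPKM that the authors computed from it. For 78.9% of the member values, FPKM equalled the count divided by length and library total within 1%, and the others were up to 1.87 times higher. Rows that named no gene, 2 in every file, were left out. Coordinates are those of the deposited tables.

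Counts were tested with edgeR 4.0.16 in R 4.3.3: TMM, filterByExpr (minimum count 10, total 15), quasi-likelihood, 2 groups of 3 libraries, no block, two-sided, Benjamini-Hochberg over 15959 genes, called under 0.05. Genes could pass the filter through the libraries of a single group. RGS11, RGS5, RGS8, S1PR4, AGTR1, EDNRB, ADGRB1 and GPR149 had under 10 counts in every myotube library. HTR3A and HTR7 on chromosome 4 had under 10 in every myoblast library. With no filter on low counts, RGS5 (edgeR adjusted p 0.0696) and RGS8 (0.0907) lost their calls, and the others named here kept theirs. The SE is the absolute log2 change over the root of the F statistic. The scripts were tested on simulated data. No libraries of a group agreed within sampling noise (chi-square per gene 7.59 to 58.5).

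Values in every library are given for called members with an absolute log2 change of at least 1 and a mean of at least 1 FPKM (31 found, the 30 largest used), the highest member of each role and the called member with the largest change in each role. In each pathway list up to 4 called genes with a mean of at least 2 FPKM are named. Values in every library of AGTR1, GNG11 and RGS2, where the rule does not reach, and single values of all other members, were added after their values were seen. Members and lists were chosen with earlier results of these data known. FPKM sums and shares are descriptions. Alternatives were DESeq2 1.42.0, its size factors in edgeR, no filter, limma 3.58.1 on log2(FPKM + 1) and log2(FPKM + 0.1), an adjusted p under 0.01, edgeR's glmTreat against 1.5-fold, each library left out and a replicate block. Leaving out myoblast replicate 3 for the counts by role was chosen after seeing the data. Counting limits cover counting error only. Some items, and the results that need them, are not reported here.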

Additional observations from a re-analysis of the deposited data

How the results depend on the processing

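Over the 44 genes named by rule and 14 alternatives, 616 values, none changed direction, 587 kept their side of the threshold and 29 lost the call. The losses included calls of GNAI2, GNB5 and RGS14. GPR107 and F2RL1 lost their calls only in glmTreat, whose 1.5-fold threshold was above their falls of 1.322-fold and 1.475-fold. Most of the 44 were chosen for a called change. The 0.01 threshold and glmTreat reuse the fitted log2 changes, so direction could not change there. Uncalled members outside the 44 did change sign in some settings. Without myoblast replicate 3, GPRC5C went from -0.54 to 0.03, GPR65 from -0.26 to 0.10 and HTR2C from -0.42 to 0.24. Against 1.5-fold, glmTreat called 21 members higher and 22 lower (31 and 44 in the reported test). Of the other pathway genes it called 19 higher (39) and 27 lower (61). Over all 15959 genes tested it called 4225, where the reported test called 9436. Members called higher and lower were 31 and 40 with DESeq2, and 25 and 33 at an adjusted p under 0.01. Leaving out each library in turn gave 27 to 36 members higher and 36 to 42 lower, with 7961 to 10000 of all genes called. GPR149 was not called by limma on log2(FPKM + 1) (adjusted p 0.0639). No pairing by replicate number was seen: deviations of same-numbered libraries correlated at 0.037, 0.030 and -0.050, and not every library correlated best with its own number. These correlations, from 3 libraries per group, cannot exclude pairing. With the replicate block 29 members were higher and 41 lower, GNG11 among the latter (-0.43, edgeR adjusted p 0.0438). Genes with few counts, such as EDNRB, ADGRB1 and RGS11 in myotubes, carry changes limited by depth.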
